A study of Mus musculus with 30 samples.

Results

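The expression of 10 genes of the cartilage and tendon lineages was followed through the osteoblast to osteocyte transition of a mouse bone cell line: the cartilage regulators Sox9, Sox5 and Sox6, the cartilage matrix genes Acan, Hapln1, Matn3 and Comp, and the tendon genes Scx, Mkx and Tnmd. They were chosen by name with earlier results of these data known, so counts of calls set beside the shares of all genes only describe. All 10 members were found by their symbols among 25520 gene symbols of the untreated cultures and 25410 of the hormone experiment. IDG-SW3 cells are a conditionally immortalised line, a single clone from mouse long bone that carries a temperature-sensitive large T antigen under an interferon-gamma-inducible promoter and a Dmp1-driven GFP reporter. All 30 libraries came from cells expanded with interferon-gamma and then moved to a warmer incubator without it, in medium with ascorbic acid and β-glycerol phosphate. Untreated cultures, given neither compound nor vehicle, were sampled on day 3, day 7 and then weekly on days 14 to 35 (6 groups, 18 libraries). In the hormone experiment, cultures of day 3 or day 35 received 100 nM 1,25(OH)2D3, the active form of vitamin D, or its ethanol vehicle for 24 h (4 groups, 12 libraries). Each group has 3 libraries, which the labels call biological replicates without naming separate platings, so the p-values measure the spread between these libraries.

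Sox9 is the transcription factor that commits skeletal progenitors to cartilage, and Sox5 and Sox6 are its partners on cartilage genes. Aggrecan (Acan) is the large proteoglycan that holds water in cartilage, the link protein Hapln1 fastens it to hyaluronan, and matrilin-3 (Matn3) and cartilage oligomeric matrix protein (Comp) are adaptors that bind collagen fibrils. Scleraxis (Scx) and Mohawk (Mkx) are transcription factors of tendon progenitors, and tenomodulin (Tnmd) is a membrane glycoprotein of mature tendon cells that Scx regulates. Osteoblasts, chondrocytes and tenocytes share mesenchymal progenitors, and Comp is also made by tendon and bone cells. Vitamin D acts through its nuclear receptor, which is present in osteoblasts and osteocytes.

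The hormone libraries held 22062866 to 54325515 counts each. The depth of the untreated libraries is not given, and from the steps between low values it ranged from 0.618 to 1.26 times that of day 3 replicate 1. The experiments used different library kits, so levels are not compared between them. Osteoblast and osteocyte markers summed to 124 to 161 RPKM (reads per kilobase of transcript, scaled to the mapped reads of the library) at untreated day 3 and 473 to 814 RPKM at day 35, with Fgf23 at 0 in all untreated groups and Sost at 0 up to day 21. In vehicle cells they summed to 1294 to 3610 CPM (counts scaled to the library's normalised total) at day 3, where Mepe and Sost were at 0, and 20544 to 26443 CPM at day 35. Chondrocyte markers outside the 10 genes (Col2a1, Col9a1, Col9a2, Col9a3, Col11a2, Col10a1, Matn1, Lect1, Epyc, Ucma) summed to 1.62 to 1.92 RPKM at untreated day 3 and 16.8 to 32.0 RPKM at day 35, where Col9a1, Matn1 and Ucma were at 0. Their sum was 12.9 to 16.8 CPM in vehicle cells at day 3 and 282 to 416 CPM at day 35, and Ucma was at 0 in all 12 libraries. Col11a2 alone averaged 16.3 RPKM in untreated and 320 CPM in vehicle cells at day 35, so these sums mostly follow that gene. At day 35, 3 of the 10 genes reached a mean of 1 RPKM in untreated cells and 5 a mean of 1 CPM in vehicle cells. Col10a1 fell in untreated cells, from a mean of 1.22 RPKM at day 3 to 0.219 RPKM at day 35. Over the same days Col2a1 rose from 0.116 to 3.94 RPKM and Epyc from 0.259 to 1.54 RPKM. In vehicle cells Col10a1 averaged 11.2 CPM at day 3 and 21.2 CPM at day 35, without a call (edgeR quasi-likelihood test, adjusted p = 0.0943). In treated cells the osteoblast and osteocyte sum was 996 to 1910 CPM at day 3 and 10747 to 13522 CPM at day 35, and the chondrocyte sum 10.4 to 14.2 and 239 to 323 CPM. Endothelial markers summed to at most 0.164 RPKM and 6.94 CPM, and skeletal muscle markers to at most 8.68 RPKM and 75.2 CPM. Macrophage and osteoclast markers (Ptprc, Csf1r, Cd68, Lyz2, Acp5, Ctsk, Oscar) summed to 24.8 to 26.1 RPKM at untreated day 3 and 50.1 to 96.0 RPKM at day 35, to 154 to 195 and 590 to 750 CPM in vehicle cells, and to 96.7 to 123 and 536 to 660 CPM in treated cells, with Ptprc at 0 in the whole hormone experiment. Few of these 7 genes make up the sums: 2 reached a mean of 1 RPKM at untreated day 3 and 1 at day 35, where Csf1r, Lyz2 and Oscar were at 0. A mean of 1 CPM was reached by 3 in vehicle and 4 in treated cells at day 3, and by 2 in each at day 35. The part of other cell types in the results below was not tested, and in bulk libraries fewer expressing cells and less RNA per cell cannot be told apart. Background was read from 1100 olfactory receptor genes: vehicle cells had 0.536 to 0.719 reads per kilobase on day 3 and 0.284 to 1.25 on day 35, and treated cells 4.35 to 6.04 on day 3 and 0.517, 3.98 and 0.718 on day 35.

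In untreated cultures Sox9 fell and Comp rose with time, Scx and Comp were lower on day 7 than on day 3, and Tnmd was higher on day 21. Only these 4 genes reached 1 RPKM in at least 3 libraries and were tested, with limma on log2(RPKM + 0.5); the other 6 lay below that level. A gene was called at a Benjamini-Hochberg adjusted p below 0.05 over the 9933 genes tested. Against day 3, 2 of the 4 genes were called on day 7, 1 on day 14, and 2 each on days 21, 28 and 35. The shares over all genes tested were 25.7%, 29.7%, 37.0%, 41.5% and 57.1% on these days, and the 4 genes are too few to be read against them. RPKM were used as listed, with rRNA rows making up 71.6% to 88.4% of each library's sum, and the median change of all genes from day 3 was 0.23 log2 units on day 7, 0.07 on day 14, -0.09 on day 21, -0.28 on day 28 and -0.69 on day 35, where 5.63% were called higher and 51.5% lower. That split depends on the scaling. Of the 9933 genes 559 were higher and 5117 lower on day 35 as listed. The counts were 2934 and 2139 with library medians set equal, and 1389 and 4147 once rRNA rows were left out of the scaling.

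Sox9 stood at 7.91, 11.3 and 13.9 RPKM on day 3 and at 6.27, 6.87 and 6.96 RPKM on day 7. On day 14 it was 3.85, 6.80 and 5.03 RPKM, on day 21 7.58, 4.08 and 5.07 RPKM, on day 28 6.01, 3.16 and 3.27 RPKM, and on day 35 2.87, 1.97 and 2.02 RPKM. All 3 libraries of day 35 lay below every library of the other days, while the libraries of days 14, 21 and 28 overlapped. The change from day 3 to day 35 was -2.03 ± 0.28 (SE) log2 units, 4.10-fold lower (limma adjusted p = 5.16e-06), and -1.33 ± 0.28 on day 28 (0.000745). Both stayed called in all 26 alternatives. The day 35 change was only -1.21 with library medians set equal, and -1.02 with the run in the model as well. In that last fit the day 28 change was -0.62 (limma adjusted p = 0.0424). Day 35 replicates 2 and 3 came from run 246, which held no library of another day. With the run in the model the day 35 change therefore rests on replicate 1, and for replicates 2 and 3 run and day cannot be told apart. Day 7 missed the threshold in limma (-0.65 ± 0.28, adjusted p = 0.0964), and none of the 4 genes was called in a step between neighbouring days from day 7 on, where 2.87%, 0.634%, 1.24% and 7.98% of all genes were called. Sox9 was also called lower on days 14 (-1.01 ± 0.28, limma adjusted p = 0.0104) and 21 (-0.93 ± 0.28, 0.0131). Those calls were lost with the sequencing run in the model (0.139 and 0.172) and without day 3 replicate 3 (0.065 and 0.0774), and the day 21 call also without day 21 replicate 2 (0.0771). With library medians set equal day 7 was called (-0.76, limma adjusted p = 0.00908), as it was after rescaling to rows other than rRNA (-0.90, 0.00356). Replicate 1 of every day shared 1 run, and within it Sox9 was -1.32 log2 units lower on day 35 than on day 3 but only -0.06 on day 21.

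Sox5, whose long form pairs with Sox6 beside Sox9, was 0.405, 0.778 and 0.425 RPKM on day 3 and 0, 0.057 and 0.080 RPKM on day 35. The 3 day 35 libraries were below all others except day 28 replicate 3 at 0.074 RPKM. Sox5 entered a test only when the level filter was dropped, and there it was lower on day 28 (-0.68 ± 0.14, limma adjusted p = 0.00199) and day 35 (-0.91 ± 0.14, 0.000125), where 22.3% and 35.6% of the 18732 genes were called lower. Sox6 was lowest on day 14, at 0.038, 0.029 and 0.037 RPKM, and spread from 0.037 to 0.275 RPKM on day 35.

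**Figure D1:**
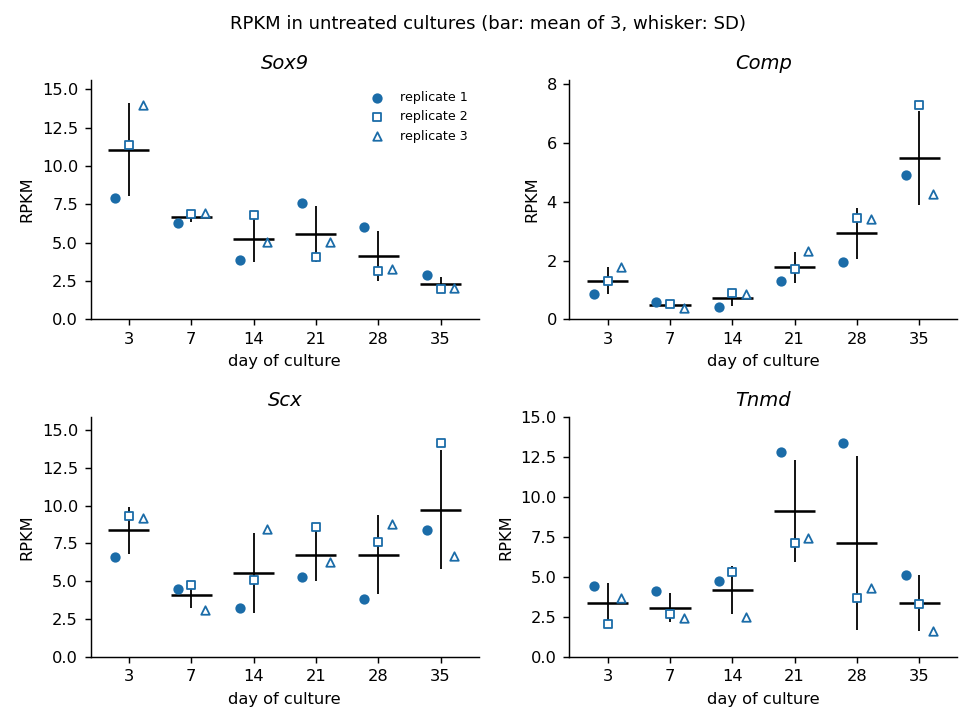
RPKM of Sox9, Comp, Scx and Tnmd (y axis, linear from 0) in the 3 untreated libraries of each day of culture (x axis), with the mean as a bar and the SD as a whisker. Sox9 goes from a mean of 11.1 RPKM on day 3 to 2.28 RPKM on day 35, Comp from 0.504 RPKM on day 7 to 5.48 RPKM on day 35, and Tnmd has its highest mean, 9.14 RPKM, on day 21.

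Of the 4 cartilage matrix genes among the 10, Comp had the highest untreated level. It was 0.857, 1.29 and 1.78 RPKM on day 3, 0.597, 0.535 and 0.380 RPKM on day 7, and 0.416, 0.900 and 0.868 RPKM on day 14. It then stood at 1.29, 1.70 and 2.32 RPKM on day 21, 1.94, 3.44 and 3.40 RPKM on day 28, and 4.92, 7.28 and 4.25 RPKM on day 35. The day 7 libraries lay below all 3 of day 3, and the day 35 libraries above every other library. Day 35 replicates 2 and 3 shared a sequencing run with no other day. Within the run of replicate 1, Comp was 2.00 log2 units higher on day 35 than on day 3. Against day 3 Comp fell on day 7 (-0.82 ± 0.27, limma adjusted p = 0.0303) and rose on day 28 (0.92 ± 0.27, 0.00935) and day 35 (1.73 ± 0.27, 2.0e-05), a 3.31-fold rise that was 2.55 log2 units with library medians set equal. The day 7 call was lost without the level filter (0.0540) and when day 3 replicate 2 (0.0818), day 3 replicate 3 (0.140), day 7 replicate 2 (0.0663) or day 7 replicate 3 (0.109) was left out, and the day 28 call without day 3 replicate 1 (0.0625). The step from day 28 to day 35 was 0.81 ± 0.27 (limma adjusted p = 0.0642). That step was called without day 14 replicate 1 (0.0486), day 28 replicate 2 (0.0437) or day 35 replicate 1 (0.0473), with library medians set equal (1.23, 0.0239) and once rRNA rows were left out of the scaling (1.13, 0.0206).

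Acan and Hapln1 appeared late and together, at low levels. Acan was at most 0.013 RPKM in the 9 libraries of days 3 to 14 and 0.007, 0.011 and 0.024 RPKM on day 21. It then stood at 0.269, 0.188 and 0.283 RPKM on day 28 and 0.467, 0.189 and 0.344 RPKM on day 35, so both late days lay wholly above the earlier ones and overlapped each other. Hapln1 did not pass 0.200 RPKM up to day 21, was 0.446, 0.710 and 1.38 RPKM on day 28, and 0.177, 0.294 and 0.814 RPKM on day 35. In these values Hapln1 amounted to about 48 reads over the 3 libraries of day 28 and 29 over those of day 35, but to 1 to 6 reads on each earlier day. With the level filter dropped, the step from day 21 to day 28 was called for Acan (0.54 ± 0.09 on the log2(RPKM + 0.5) scale, limma adjusted p = 0.00603) and Hapln1 (1.08 ± 0.23, 0.0392). That step was called higher for 0.598% of the 18732 genes tested so. Against day 3, 5 of the 10 genes were called without the filter on days 28 and 35 (Sox9, Sox5, Comp, Acan and Hapln1), where 29.1% and 39.6% of the genes were. That scale understates the change of genes this low. Matn3 was at 0 in 11 of the 18 libraries and at most 0.121 RPKM, about 0 to 4 reads a day, and no change was detectable at this depth.

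**Figure D2:**
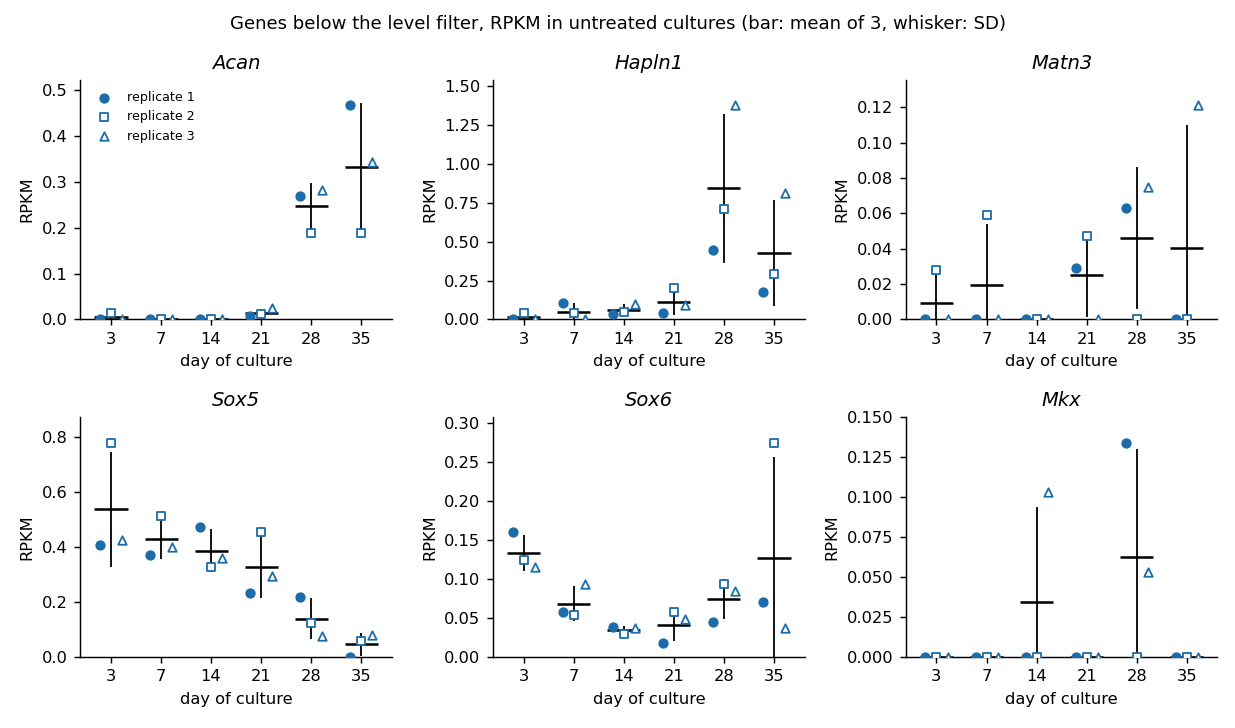
RPKM of Acan, Hapln1, Matn3, Sox5, Sox6 and Mkx (y axes, linear from 0, each with its own scale) in the 3 untreated libraries of each day (x axis), with mean bars and SD whiskers. Acan and Hapln1 are near 0 up to day 21 and reach means of 0.247 and 0.844 RPKM on day 28, while Sox5 goes from 0.536 RPKM on day 3 to 0.046 RPKM on day 35.

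Among the tendon genes, Scx was present throughout. It was 6.58, 9.32 and 9.15 RPKM on day 3 and 4.46, 4.75 and 3.11 RPKM on day 7, without overlap. Later values ran from 3.19 to 8.81 RPKM on days 14 to 28 and were 8.37, 14.2 and 6.70 RPKM on day 35, overlapping day 3. Scx fell on day 7 (-0.94 ± 0.34, limma adjusted p = 0.0480) and was not called on any later day. The day 7 call ended with a pseudocount of 0.1 (0.0553), without the level filter (0.0875), and (adjusted p 0.0510 to 0.176) without any one library of day 3 or day 7, and without day 14 replicate 2, day 21 replicate 2 or 3, or day 28 replicate 2. With library medians set equal, Scx on day 35 was called higher (0.98, limma adjusted p = 0.0287, against 0.16 and 0.709 as listed).

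Tnmd, a late marker of tendon cells, was 4.44, 2.05 and 3.71 RPKM on day 3 and 12.9, 7.11 and 7.45 RPKM on day 21. It remained at 13.4 RPKM in replicate 1 of day 28 but was 3.65 and 4.34 RPKM in the others (0.80 ± 0.43 against day 3, limma adjusted p = 0.143, but called at 0.0181 with library medians set equal and at 0.0308 with the replicate number as a block), and on day 35 it was 5.12, 3.31 and 1.64 RPKM. All day 21 libraries lay above all those of days 3, 7, 14 and 35. Tnmd rose on day 21 (1.31 ± 0.43, 2.48-fold, limma adjusted p = 0.020), a call lost without day 3 replicate 2 (0.104) or day 21 replicate 1 (0.0895). The difference between days 35 and 3 was -0.07 ± 0.43 (0.896) and took the other sign, still uncalled, with library medians set equal (0.75), after rescaling to rows other than rRNA (0.29) and with the run in the model (0.17). Mkx, the other tendon regulator, was listed at 0 in 15 of the 18 libraries, with 0.103 RPKM in day 14 replicate 3, 0.134 RPKM in day 28 replicate 1 and 0.053 RPKM in day 28 replicate 3.

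In the hormone experiment the late vehicle cells differed from the early ones in 7 of the 10 genes. Acan, Comp, Hapln1, Matn3, Tnmd and Scx rose, and Sox9 fell (edgeR quasi-likelihood test, adjusted over 20055 genes). Over all genes 29.9% were called, 15.5% higher and 14.5% lower, with a median change of 0.17 log2 units. Per kilobase of transcript, Sox9 (20.6 ± 10.5 CPM per kilobase, SD) and Scx (15.5 ± 3.16) led at day 3, ahead of Comp (6.64 ± 0.910) and Tnmd (6.11 ± 0.679). At day 35 Comp led (110 ± 37.2 CPM per kilobase), followed by Scx (24.8 ± 0.477), Tnmd (11.3 ± 2.47), Acan (7.01 ± 2.09), Sox9 (5.12 ± 3.43), Matn3 (3.50 ± 0.419) and Hapln1 (1.90 ± 0.749). In these orders the libraries of Sox9 and Scx overlapped at day 3, as did those of Comp and Tnmd, and at day 35 those of Sox9 overlapped Acan above and Matn3 below.

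Sox9 was 46.4, 132 and 77.3 CPM in vehicle cells at day 3 and 37.5, 12.6 and 13.4 CPM at day 35. The groups did not overlap, although day 35 replicate 1 lay well above its own group. Sox9 fell 4.02-fold (log2 change -2.01 ± 0.46, edgeR adjusted p = 0.00346), and by -2.71 without day 35 vehicle replicate 1. Sox5 and Sox6 had 0 to 22 counts in each library and were not called in any comparison of this experiment. Their counts were below or near the background estimate of 2.11 to 56.5 reads in most libraries. In the treated day 3 libraries Sox5 had 18 reads in sum against 112 estimated, so the estimate is too high for some genes.

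Acan went from 31, 35 and 21 counts at day 3 to 2369, 1208 and 1025 counts at day 35. In normalised terms that was 0.676 ± 0.169 CPM (SD, n = 3) against 51.6 ± 15.3 CPM, a 76.0-fold rise (6.25 ± 0.38, edgeR adjusted p = 1.05e-08), with a background estimate of at most 5.29 reads in a day 3 vehicle library. Its partner Hapln1 rose from 27, 49 and 47 to 536, 206 and 233 counts (3.52 ± 0.51, edgeR adjusted p = 7.93e-05). Comp rose from 14.5, 18.6 and 15.0 CPM to 163, 305 and 330 CPM (4.05 ± 0.28, edgeR adjusted p = 3.85e-08). Matn3, hardly seen in untreated cells, was 1.66, 0.947 and 2.39 CPM at day 3 and 10.1, 12.0 and 9.60 CPM at day 35 (2.66 ± 0.28, edgeR adjusted p = 2.78e-06). None of these 4 matrix genes overlapped between the days, where 29.9% of all genes were called. The share of all genes without overlap was not counted.

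The tendon genes moved less. Tnmd was 7.34, 9.18 and 8.28 CPM in vehicle cells at day 3 and 19.1, 13.3 and 13.3 CPM at day 35 (0.88 ± 0.23, edgeR adjusted p = 0.00784). Scx was 17.0, 18.7 and 12.4 CPM at day 3 and 26.2, 25.6 and 25.2 CPM at day 35 (0.68 ± 0.19, edgeR adjusted p = 0.0138), a call lost without day 3 vehicle replicate 3 (0.0626). Mkx had 30, 0 and 47 counts at day 3 and 20, 20 and 29 at day 35, and was not called in any comparison.

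Treatment for 24 h changed 2 of the 10 genes at day 3 and 4 at day 35. Scx fell and Matn3 rose on both days, and on day 35 Acan also fell and Tnmd also rose. Over all genes 20.5% were called at day 3 and 4.56% at day 35, with median changes of 0.26 and 0.02 log2 units, so the day 3 count is near the share of all genes. The day 35 count was 2 without day 35 vehicle replicate 2 or 3. At day 35 2.41% of all genes were called higher and 2.14% lower. DESeq2 called 4 of the 10 genes at day 3, adding Sox9 and Acan, against 32.0% of all genes.

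Matn3, the matrilin of cartilage and of bone-forming cells, was 1.66, 0.947 and 2.39 CPM in vehicle cells and 6.20, 6.37 and 4.80 CPM in hormone-treated cells at day 3. At day 35 the values were 10.1, 12.0 and 9.60 CPM against 35.4, 43.1 and 45.7 CPM. On both days every treated library lay above every vehicle library. The rise was 3.48-fold at day 3 (1.80 ± 0.27, edgeR adjusted p = 0.000444) and 3.93-fold at day 35 (1.97 ± 0.26, 0.000226), and the day 35 response exceeded the day 3 response by 0.18 ± 0.37 log2 units (0.807). In the day 3 hormone libraries Matn3 had 176, 225 and 175 counts, of which 13.1 to 18.2 a library were expected from background.

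Scx was 17.0, 18.7 and 12.4 CPM in vehicle cells at day 3 and 2.78, 4.02 and 3.35 CPM after treatment. At day 35 it was 26.2, 25.6 and 25.2 CPM against 15.1, 13.0 and 15.8 CPM. The groups did not overlap on either day. Scx fell 4.72-fold at day 3 (-2.24 ± 0.20, edgeR adjusted p = 4.23e-06) and 1.75-fold at day 35 (-0.81 ± 0.19, 0.0236). The day 35 call was lost when any one of the 6 day 35 libraries was left out (0.0716 to 0.117). The response differed between the days by 1.43 ± 0.28 log2 units (edgeR adjusted p = 0.00498), the fall being larger at day 3. Scx and Acan were the 2 of 10 genes whose response differed between the days, against 7.08% of all genes.

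Tnmd, which Scx regulates in tendon, moved the other way at day 35. It was 11.4, 9.60 and 9.06 CPM in treated day 3 cells against 7.34, 9.18 and 8.28 CPM in vehicle cells, with overlap (0.28 ± 0.23, edgeR adjusted p = 0.373). At day 35 it was 37.7, 20.9 and 28.9 CPM against 19.1, 13.3 and 13.3 CPM, without overlap. That rise was 1.91-fold (0.94 ± 0.23, edgeR adjusted p = 0.0248) and lost its call without day 35 vehicle replicate 2 (0.0976) or 3 (0.0900) or hormone replicate 1 (0.0955). The difference between the days was 0.66 ± 0.32 (0.225), called only without day 35 hormone replicate 2 (0.96, edgeR adjusted p = 0.0319).

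Acan was 69.3, 43.6 and 41.9 CPM in vehicle cells at day 35 and 8.94, 15.0 and 14.5 CPM after treatment, with no overlap. It fell 4.03-fold (-2.01 ± 0.30, edgeR adjusted p = 0.000680). At day 3 it had 31, 35 and 21 counts in vehicle cells and 47, 24 and 52 in treated cells, a change of 0.88 ± 0.36 (0.0871), called by DESeq2 (0.96, 0.0398) and without day 3 hormone replicate 2 (1.17, 0.044). The background estimate for the treated libraries was 32.0 to 44.4 reads, 111 in sum against 123 observed, and with background subtracted the change had the other sign (-1.30). The day 35 response was lower than the day 3 response by -2.89 ± 0.47 (edgeR adjusted p = 0.00121), and by -0.67 (0.667) after background subtraction, when Scx alone of the 10 genes was called and 8.81% of all genes were. The fall at day 35 stayed between -2.11 and -1.74 in all 18 alternatives.

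Hapln1, Comp and Sox9 were not called at either day. Hapln1 was 15.7, 7.43 and 9.52 CPM in vehicle cells at day 35 and 9.30, 2.61 and 2.92 CPM after treatment (-1.13 ± 0.46, edgeR adjusted p = 0.248). Replicate 1 was the highest of both groups, and without hormone replicate 1 the fall was called (-1.92, 0.0159), as was its difference from day 3 (-2.54, 0.0123). Comp was 163, 305 and 330 CPM against 129, 203 and 182 CPM at day 35, with overlap (-0.63 ± 0.25, edgeR adjusted p = 0.22), and was called without vehicle replicate 1 (-0.89, 0.0258). Sox9 was 46.4, 132 and 77.3 CPM in vehicle cells at day 3 and 55.8, 25.6 and 21.7 CPM after treatment. Vehicle replicate 1 lay below treated replicate 1, and the change was -1.31 ± 0.45 (edgeR adjusted p = 0.0504). It was called by DESeq2 (0.0217), without the filter on low counts (0.0269), without day 3 vehicle replicate 1 (-1.70, 0.0158) or day 3 hormone replicate 1 (-1.85, 0.0176), and without any one day 35 library (0.0220 to 0.0383). At day 35 Sox9 was 37.5, 12.6 and 13.4 CPM against 12.9, 10.5 and 10.9 CPM (-0.89 ± 0.45, edgeR adjusted p = 0.401).

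**Figure D3:**
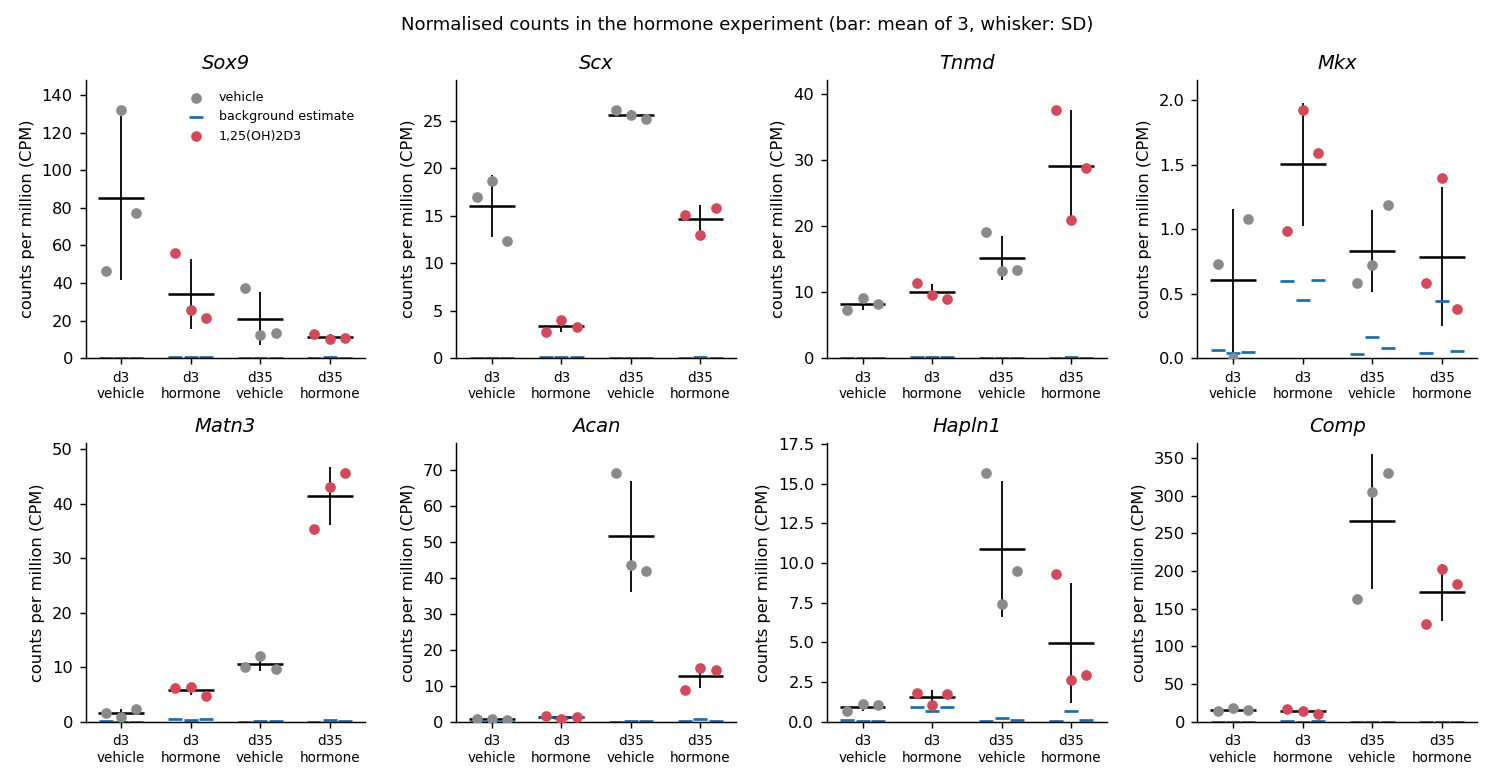
CPM (y axes, linear from 0, each with its own scale) of 8 genes in the 3 libraries of each group of the hormone experiment (x axis), with mean bars and SD whiskers. Grey points are vehicle, red points 1,25(OH)2D3, and blue dashes the background estimate from olfactory receptor genes: Matn3 is higher with hormone on both days and Scx lower, and the Mkx and Hapln1 points of the treated day 3 cells lie above the dashes.

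**Figure D4:**
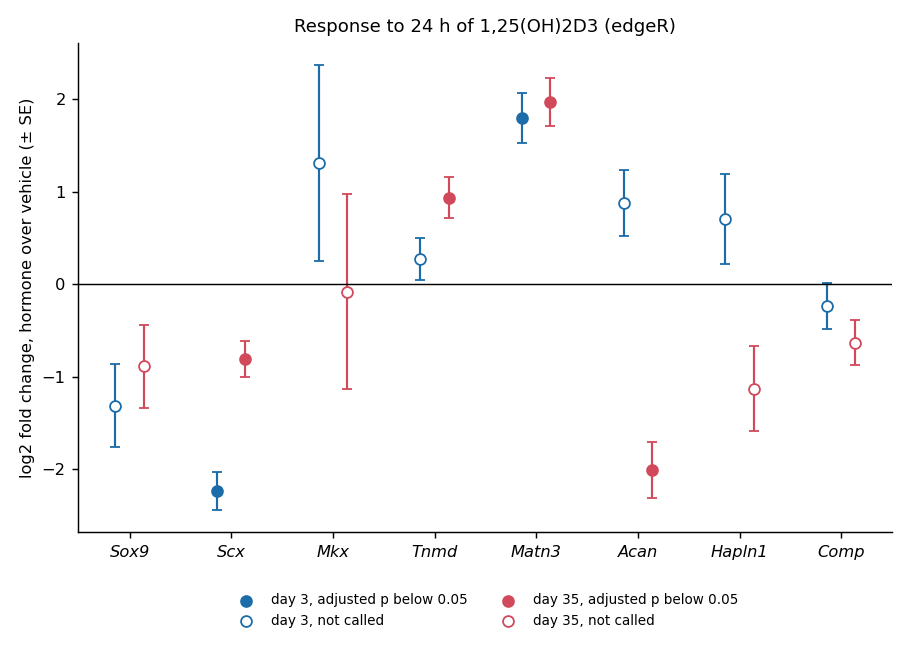
Log2 fold change of hormone over vehicle (y axis, whiskers ± SE from edgeR) for 8 genes (x axis) at day 3 (blue) and day 35 (red), filled where the adjusted p is below 0.05. Matn3 is near the same height on both days (1.80 and 1.97), Scx is further below 0 at day 3 (-2.24) than at day 35 (-0.81), and Acan is filled only at day 35 (-2.01).

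Under the hormone the late cells also differed from the early ones in 7 of the 10 genes, the same 7 in the same directions as in vehicle cells, against 27.6% of all genes. These comparisons share no library with the vehicle comparison. Acan rose by 3.36 ± 0.34, Comp by 3.65 ± 0.27, Matn3 by 2.84 ± 0.27 and Scx by 2.11 ± 0.20 log2 units. Tnmd rose by 1.54 ± 0.23 (edgeR adjusted p = 0.000125) and Hapln1 by 1.67 ± 0.48 (0.0166), and Sox9 changed by -1.58 ± 0.45 (0.0172). The Hapln1 call was lost without day 3 hormone replicate 2 (0.0706) or day 35 hormone replicate 1 (0.99, 0.0846), and the Sox9 call without day 3 hormone replicate 1 (-1.04, 0.106) or day 35 hormone replicate 1 (0.0562) or 3 (0.0770). After background subtraction Acan rose by 5.82 and Hapln1 by 2.70 log2 units.

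The promoters of the 3 genes that the hormone changed at day 35 and that have a RefSeq promoter entry are shown, because these genes moved in different directions (Matn3 and Tnmd up, Acan down). Entries were found for 6 of the 10 genes. Each sequence is the 250 bases before the annotated start on the plus strand of GRCm38.p6, Matn3 at chr12:8947679-8947928, Acan at chr7:79052976-79053225 and Tnmd at chrX:133850758-133851007. Capitals mark a match to a nuclear receptor half-site (spelled AGGTCA or else GGGTCA, and likewise AGTTCA or else GGTTCA) or a SOX motif (spelled ACAAAG or else ACAATG, and likewise TCAAAG or else TCAATG), each searched on both strands.
Matn3: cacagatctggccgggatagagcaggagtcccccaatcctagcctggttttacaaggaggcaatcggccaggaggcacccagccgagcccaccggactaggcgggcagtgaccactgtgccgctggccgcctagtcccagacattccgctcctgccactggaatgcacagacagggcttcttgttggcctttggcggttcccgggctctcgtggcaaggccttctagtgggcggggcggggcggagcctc
Acan: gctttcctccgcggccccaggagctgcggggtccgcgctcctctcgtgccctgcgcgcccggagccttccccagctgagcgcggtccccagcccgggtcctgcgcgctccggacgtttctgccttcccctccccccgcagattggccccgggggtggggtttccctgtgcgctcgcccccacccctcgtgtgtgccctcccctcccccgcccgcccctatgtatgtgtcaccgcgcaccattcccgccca
Tnmd: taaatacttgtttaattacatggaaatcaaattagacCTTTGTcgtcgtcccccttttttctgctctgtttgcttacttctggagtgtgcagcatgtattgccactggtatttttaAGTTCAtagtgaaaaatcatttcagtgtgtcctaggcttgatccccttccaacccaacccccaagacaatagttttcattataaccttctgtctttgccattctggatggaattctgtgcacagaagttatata
The Tnmd sequence holds a SOX motif on the other strand 213 to 208 bases before the start and a half-site (AGTTCA) 134 to 129 bases before it, which do not overlap. Neither motif was found in the Matn3 and Acan windows, and TATAAA on the gene strand was found in none of the 3. Among 32851 promoters of this length 38.6% hold a half-site, 39.4% a SOX motif and 7.59% TATAAA. The GC content was 65.2% for Matn3, 74.4% for Acan and 38.4% for Tnmd, against a median of 52.4% over all promoters.

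The other genes of cartilage matrix were counted in lists, against shares of 15.5% higher and 14.5% lower over all genes in vehicle cells and 5.63% and 51.5% in untreated cells at day 35. Of 8 cartilage collagens, 4 rose and 1 fell in vehicle cells from day 3 to day 35 (median 2.00 log2 units, all genes 0.17). Col11a2, a fibril collagen chain, rose from 0.703 ± 0.769 to 320 ± 75.9 CPM (edgeR adjusted p = 5.27e-08) and Col11a1 from 987 ± 108 to 2719 ± 388 CPM (4.09e-06), while Col27a1, of the growth plate, fell from 44.8 ± 3.08 to 16.2 ± 4.09 CPM (3.27e-05). Col2a1, the main collagen of cartilage, had no count in the vehicle cells of day 3 and reached 1.76 ± 0.673 CPM at day 35 (0.000924). In untreated cells, 2 rose and 3 fell of 5 collagens tested (median -0.55 log2 units, all genes -0.69). Col2a1 rose there from 0.116 ± 0.0145 to 3.94 ± 2.14 RPKM (limma adjusted p = 4.44e-07), as did Col11a2 (7.46e-09). Col11a1 was among those that fell (from 2.45 ± 0.303 to 1.51 ± 0.256 RPKM, limma adjusted p = 0.0288). Its change of -0.55 ± 0.21 log2 units was smaller than the median fall of all genes. Of 12 other cartilage matrix genes tested, 4 rose and 1 fell in vehicle cells, with Matn4 from 1.64 ± 0.781 to 113 ± 10.8 CPM (edgeR adjusted p = 1.04e-08). Of the 4 other thrombospondins, the family of Comp, 2 rose and 2 fell in vehicle cells, and the hormone lowered 2 and raised 1 at day 3 (all genes 9.09% and 11.4%), and none was called at day 35. Of 6 relatives of aggrecan and link protein (median 1.61), 3 rose and versican (Vcan), the proteoglycan of immature matrix, fell from 49.1 ± 7.70 to 2.23 ± 1.06 CPM (1.70e-06).

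Genes that build and cut aggrecan were counted in the same way. Of 8 aggrecan-cutting proteases and their inhibitor, 4 rose and 4 fell in vehicle cells between the days. At day 35 the hormone raised 2 of the 8 and lowered none, where 2.41% of all genes were called higher and 2.14% lower (median 0.45, all genes 0.02): Adamts1 went from 402 ± 35.7 to 1090 ± 183 CPM (1.44 ± 0.16, edgeR adjusted p = 5.29e-05) and the collagenase Mmp13 from 635 ± 42.6 to 1368 ± 231 CPM (1.11 ± 0.19, 0.00223). At day 3 it lowered 3 (all genes 9.09%), among them Adamts1 (from 4473 ± 575 to 1601 ± 66.5 CPM, edgeR adjusted p = 2.27e-05) and the inhibitor Timp3 (from 3039 ± 831 to 445 ± 37.1 CPM, 6.54e-07). Of 13 enzymes of chondroitin sulfate synthesis and sulfation tested, the hormone lowered 1 at day 35 (median -0.38), the chondroitin synthase Chsy1 (from 300 ± 34.0 to 163 ± 17.0 CPM, edgeR adjusted p = 0.0122). Among 14 chondrogenic regulators tested, 3 rose and 1 fell with the hormone at day 3 (median 1.36, all genes 0.26), and 1 rose and 2 fell at day 35 (median -0.37). Over all genes 11.4% were called higher and 9.09% lower at day 3, and 2.41% and 2.14% at day 35. The parathyroid hormone receptor Pth1r went from 0.225 ± 0.175 to 1.24 ± 0.502 CPM at day 3 (edgeR adjusted p = 0.00347) and from 21.1 ± 6.82 to 6.07 ± 0.695 CPM at day 35 (0.0116), in opposite directions. At day 3 background was 4.35 to 6.04 reads per kilobase in treated cells against 0.536 to 0.719 in vehicle cells. With background subtracted, the day 3 median of all genes went from 0.26 to 0.00018. The part of background in the day 3 changes of Pth1r and the other regulators was not tested.

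Of 19 tendon regulators and matrix genes tested, the hormone lowered 7 and raised 1 at day 3, where Scx fell (median -0.67 log2 units, all genes 0.26). Egr2, a transcription factor of tendon collagen genes, went from 97.2 ± 5.10 to 9.76 ± 1.78 CPM (edgeR adjusted p = 3.73e-07), Tgfb2 from 265 ± 65.0 to 52.5 ± 2.30 CPM (3.55e-06) and tenascin-C (Tnc) from 1484 ± 129 to 642 ± 36.5 CPM (8.61e-05). The calls over all genes were split into 11.4% higher and 9.09% lower. At day 35 the hormone lowered 1 of the 19, Tnc, from 4715 ± 727 to 1679 ± 119 CPM (edgeR adjusted p = 2.12e-05). Between the days 6 rose and 6 fell of 19 in vehicle cells (all genes 15.5% and 14.5%), and 6 rose and 6 fell of 16 in untreated cells (all genes 5.63% and 51.5%). Tenocyte markers outside the 10 genes summed to 659 to 1406 CPM in vehicle cells and 362 to 733 CPM in treated cells at day 3, and adipocyte markers to 1.74 to 3.92 CPM and 2.18 to 135 CPM, the highest in hormone replicate 3. Without that library the day 3 changes of Scx and Matn3 were -2.23 ± 0.25 and 1.91 ± 0.29.

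Over the 12 libraries of the hormone experiment, the genes whose log2 CPM were most like those of Acan were Sorcs2, Asrgl1 and Panx3 (Pearson's r 0.985, 0.985 and 0.984). For Matn3 they were Pla2g5, Cygb and Kif13b (0.983, 0.982 and 0.982), for Scx Hk2, Akr1a4 and Tmem45a (0.988, 0.974 and 0.962), and for Comp the secreted factor Serpinf1, the bone collagen gene Col1a2 and Trib3 (0.992, 0.990 and 0.989). These libraries form 4 groups and differ in depth and background, so the values only describe likeness of pattern across groups. Over the 18 untreated libraries, in log2(RPKM + 0.5), Sox9 was most like Lamc1, Ppifos and Dusp16 (0.897, 0.886 and 0.875) and Tnmd most like Tpst1, Srpx and Hpgd (0.908, 0.878 and 0.876).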

How the data were processed

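The untreated files hold RPKM per gene, a unit read from the values, and the hormone files hold raw counts, which the submitters deposited as whole numbers that grow with gene length (Spearman's rho 0.330 across genes, against 0.0112 for the RPKM) although the files are named as RPKM. Per the submitters' processing notes, the authors aligned reads to mm9 with TopHat; its version, the counting rule and the annotation are not given in the sources used here. Rows of 1 symbol were reduced to the highest-mean row for RPKM and summed for counts (Sox5 has 2 rows, Sox6 3, the others 1).

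Untreated libraries were tested with limma (3.58.1, trended moderation, 12 residual degrees of freedom) on log2(RPKM + 0.5) for genes that reached 1 RPKM in 3 or more libraries. Hormone libraries were tested with edgeR (4.0.16, quasi-likelihood, filterByExpr, TMM, 8 residual degrees of freedom), with DESeq2 (1.42.0) as an alternative, in R 4.3.3. SE of edgeR changes come from the change and its F statistic. Tests are two-sided, with Benjamini-Hochberg adjustment over all genes tested. Background was counted on olfactory receptor genes, and GENCODE vM21 exon lengths, known for 90.8% of symbols, served the per-kilobase values. The fits were tested on simulated data. Changes were set there only in genes above a level that Sox5 and Sox6 did not reach, so genes this low were not covered. Same-numbered libraries deviated together (r over 0.1) in 41 of 45 untreated pairs, the other 4 being day 35 replicate 3 with another day. Replicate 1 of each day shared a sequencing run, and deviations from a mean of 3 libraries tie the other numbers to replicate 1. The check therefore cannot tell pairing of cultures from the run. In the hormone experiment 2 of 18 pairs passed r 0.1. The main tests of both experiments left the replicate number out, and fits with it as a block are among the alternatives. The genes, the gene lists and the markers were chosen with earlier results of these data known. Of each list the genes named are up to 4 with the smallest adjusted p, and the likeness genes are the 3 with the highest r. The untreated value of Col11a1 and the vehicle value of Col10a1 lie outside that rule. They were given because each went the other way from the other experiment, although the Col10a1 change in vehicle cells was not called.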

Additional observations from a re-analysis of the deposited data

Results flagged for a closer look

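The response to 1,25(OH)2D3 differed between days 35 and 3 for 2 of the 10 genes, by edgeR's test of the difference itself. For Scx the day 35 response minus the day 3 response was 1.43 log2 units (adjusted p = 0.00498), between falls of -2.24 at day 3 and -0.81 at day 35, with adjusted p of at most 0.0168 under the 17 alternatives. For Acan it was -2.89 (adjusted p = 0.00121), between 0.88 at day 3, not called, and -2.01 at day 35. Acan's adjusted p ran from 4.07e-07 to 0.667 under its 17 alternatives, and the highest came with background subtracted, when the day 3 counts of Acan in treated cells (123 in sum) were set against 111 reads of estimated background.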

How the results depend on the processing

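Of 31 called changes of single genes, 19 kept their direction and their call under every alternative and 0 changed direction; of 36 changes not called, 10 changed direction under at least 1. The number of the 10 genes called against untreated day 3 was 1 on day 7 with a pseudocount of 0.1 and 0 without the level filter, against 2, but 3 with centring or rescaling. It was also 3 on day 28 with centring or the replicate block and 3 on day 35 with centring. With the sequencing run in the model it was 0 on day 14 and 1 on day 21, and also 1 on day 21 with run and centring together, an alternative chosen after seeing the data. Without the filter, when all 10 genes were tested, it was 5 on day 28 and 5 on day 35, and 2 for the step from day 21 to 28. On days 28 and 35 Acan, Hapln1 and Sox5 were the added calls, while Matn3, Mkx and Sox6 were tested but not called. With run and centring together 2 were called from day 14 to 21, and 1 (Comp) from day 28 to 35 after centring, 1 after rescaling and 1 with the replicate block. DESeq2 called 4 genes at day 3 of the hormone experiment against 2, and the difference between responses kept 1 of 2 after background subtraction. Leaving out single libraries gave 0 to 2 genes on day 7, 0 to 1 on day 14, 1 to 2 on day 21, 1 to 2 on day 28, 0 to 1 from day 28 to 35, and 2 to 4 for the hormone at day 35.

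Changes not called that took the other sign were Scx on day 28 (0.053 after centring, 0.040 with run and centring) and Tnmd on day 35 (0.75 after centring, 0.29 after rescaling, 0.17 with the run, 0.70 with run and centring). With background subtracted, Acan (-1.30) and Hapln1 (-0.24) did so for the hormone at day 3. Leaving out single libraries did it for Tnmd on day 7 (-0.38 to 0.10), day 14 (-0.023 to 0.56) and day 35 (-0.40 to 0.30), Scx on day 35 (-0.13 to 0.38), Sox9 from day 14 to 21 (-0.15 to 0.27), and the difference between responses of Sox9 (-0.033 to 1.14) and Matn3 (-0.047 to 0.47). The cause was not tested.

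With the replicate number as a block, Tnmd on day 28 (0.80, limma adjusted p = 0.0308), Comp from day 28 to 35 (0.81, 0.0283) and Sox9 at day 3 with hormone (-1.49, edgeR adjusted p = 0.0354) were called, and the block changed no other call of a member. Depth limits Matn3, Mkx and Sox6 in untreated cells, where single reads set the values, and Sox5, Sox6 and Mkx in the hormone experiment.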
